A study of Mus musculus with 6 samples.

Results

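The phagocyte NADPH oxidase genes comprised 7 of the 27179 genes in the deposited expression table, namely Cybb, Cyba, Ncf1, Ncf4, Rac1, Rac2 and Hvcn1. They were taken by name, through their Entrez gene numbers. The rule used no expression value, although the set was proposed with earlier results of these data known. All 7 were found and all 7 passed the filter on low values. By role they fall into 2 membrane subunits (Cybb and Cyba), 4 cytosolic subunits (Ncf1, Ncf4, Rac1 and Rac2) and 1 proton channel (Hvcn1). Other cytosolic subunits were not analysed here.

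The phagocyte NADPH oxidase makes superoxide, the first product of the respiratory burst with which neutrophils and macrophages kill ingested microbes. Its catalytic core is a membrane flavocytochrome built from CYBB, which carries electrons from NADPH to oxygen, and CYBA, its partner in the membrane. The enzyme is silent until cytosolic subunits, among them NCF1 and NCF4, and a Rac GTPase dock on that core. The voltage-gated proton channel HVCN1 lets protons follow the electrons and so balances the charge that the enzyme moves. In the myeloid lineage the core subunits accumulate as cells mature.

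The libraries came from leukemia-initiating cells (LICs) of a mouse model of acute myeloid leukemia driven by the MLL-AF9 fusion. Lineage-depleted fetal liver cells of either genotype had been infected with a retrovirus carrying MLL-AF9 and YFP and transplanted into lethally irradiated recipients, and YFP+Mac-1+c-Kit+ cells were then sorted from bone marrow. There were 3 libraries labelled WT and 3 labelled Asic3-null, all on the C57BL/6 strain and at an age of 8 weeks, and both groups carried the same fusion. Asic3 encodes a proton-gated cation channel, and by its labels the comparison is of cells with and without an inactivated gene for that channel. The values of Asic3 and of sex-linked genes, given below, limit what the comparison can answer. The labels do not say whether the replicates came from separate mice, so all p-values measure the spread between these libraries, which may be technical.

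Library sizes recovered from the table ran from 1947168 to 2381861 reads, a tested gene had a median of 81 reads in a library, and the members held 87 to 2903. Hvcn1, at 87 to 170 reads, was the member with the largest counting error. Against its label, Asic3 itself was higher in the Asic3-null-labelled libraries, at 9.12, 4.11 and 6.58 RPKM, reads scaled to gene length and library size, against 1.22, 1.85 and 0.435 RPKM, with 41, 19 and 30 reads against 5, 7 and 2 (log2 fold change 1.81, SE 0.35, limma adjusted p = 0.0260). The call was lost when any of 4 single libraries was left out, as the closing section gives. A value for the whole gene cannot show which exons the reads came from. The 4 Y-linked genes examined summed to 118.2, 92.3 and 81.4 RPKM in the WT-labelled libraries and had 0 reads in the other group, while Xist was at 58.0 ± 12.9 against 0.036 ± 0.019 RPKM (SD, n = 3 each). Genotype label and sex of the cells therefore cannot be told apart in any comparison between these groups.

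Cell type markers also moved with the labels. Of 12 genes of mature neutrophils 10 were tested and all 10 were lower in the Asic3-null-labelled libraries. Their summed level ran from 2253 to 3172 RPKM in the WT-labelled libraries and from 251 to 352 RPKM in the others, although Ly6g, a defining surface marker, was at 0 in every WT-labelled library. Of 11 monocyte and macrophage genes 7 passed the filter in both groups and 3 were lower, with sums of 1550 to 1710 against 1135 to 1334 RPKM. The Mac-1 antigen by which the cells were gated includes the product of Itgam, which fell from 76.8 ± 18.8 RPKM in the WT-labelled libraries to 14.0 ± 2.51 RPKM. Of the other 5 genes of the labelled cells, Meis1, a homeobox gene of MLL-rearranged leukemia, was called higher, at 14.4 ± 0.48 and 28.4 ± 6.78 RPKM (log2 fold change 0.91, limma adjusted p = 0.0367). Kit (11.1 ± 3.60 and 17.6 ± 3.00 RPKM), Cd34 (132.1 ± 17.6 and 153.2 ± 0.71 RPKM), Myb (181.5 ± 30.2 and 230.6 ± 21.8 RPKM) and Hoxa9 (78.2 ± 8.25 and 52.8 ± 12.8 RPKM) did not pass the test. Of 7 B cell genes 2 were tested and none was called. Most of their sum was Cd79b, at 41.7 to 49.0 RPKM in the WT-labelled and 37.3 to 47.2 RPKM in the other libraries, while Ms4a1 was at 0 in all 6. Fewer cells of a type and less RNA per cell cannot be told apart in bulk libraries, and the part that maturing myeloid cells play in the oxidase values was not tested.

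The membrane core was lower in the Asic3-null-labelled libraries, and the catalytic subunit fell most. Cybb was 3.13-fold lower in mean RPKM and Cyba was 1.50-fold lower. Of the cytosolic subunits, Ncf4 was 2.09-fold lower, while Ncf1, Rac1 and Rac2 did not pass the test. The proton channel gene Hvcn1 was the only member with a higher mean, and it did not pass either. In all, 3 of 7 members were called at an adjusted p under 0.05 and all 3 were lower, where 3.35% of the 12037 tested genes were called 2.82% were called lower and 0.523% higher. At an unadjusted p under 0.05 the count was 4 of 7 by limma, with Hvcn1 as the fourth, against 15.9% of all tested genes. In 9 of 15 alternatives 2 members were called rather than 3, as Cyba was then lost. The median log2 fold change was -0.49 over the members and 0.03 over all tested genes.

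**Figure D1:**
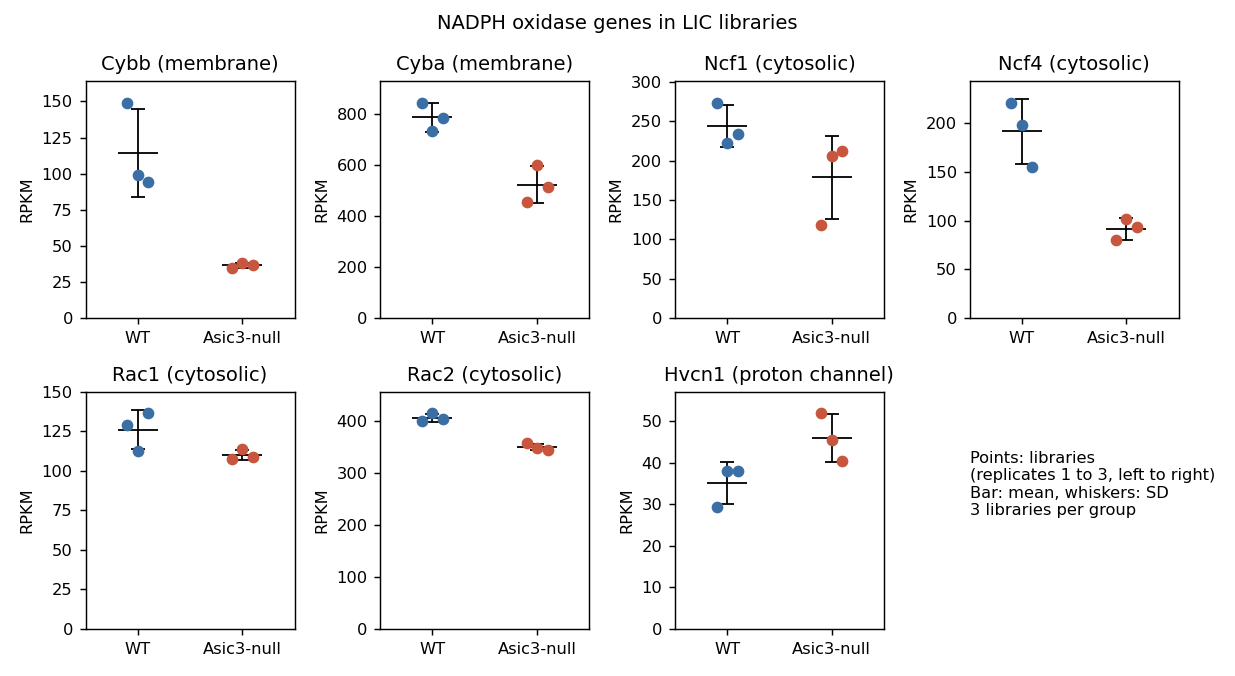
RPKM of each oxidase gene in the 3 WT-labelled and 3 Asic3-null-labelled libraries, with points for libraries, a bar for the mean and whiskers for the SD; each panel starts at 0 and has its own scale. The groups are wide apart for Cybb (lowest WT-labelled 94.6, highest Asic3-null-labelled 38.3 RPKM) and overlap for Rac1.

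Cybb, on the X chromosome (Entrez 13058, chrX:9435252-9487766 in GRCm38), was measured at 149.2, 99.1 and 94.6 RPKM in the WT-labelled libraries and at 34.5, 38.3 and 36.8 RPKM in the Asic3-null-labelled ones. The groups lay far apart, replicate 1 of the WT-labelled group stood above its neighbours, and the Asic3-null-labelled values were close together. Mean Cybb was 114.3 ± 30.3 RPKM against 36.6 ± 1.92 RPKM, with SD over 3 libraries in each group, a level 68.0% lower. Its log2 fold change was -1.59 (SE 0.18, 95% interval -2.00 to -1.18, limma adjusted p = 0.00221). Without replicate 1 of the WT-labelled group it was -1.38 and was still called. Among all tested genes the mean level of Cybb stood at the 93.5 percentile in the WT-labelled and at the 75.7 percentile in the Asic3-null-labelled libraries. Its reads fell from between 917 and 1491 to between 380 and 434 per library.

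As Cybb is X-linked and the groups differed in Xist, the X chromosome was examined as a whole. Of 345 tested X-linked genes 13 were called (3.77%), 7 lower and 6 higher, with Xist among the higher ones. Of all 12037 tested genes 403 were called (3.35%), 340 lower (2.82%) and 63 higher (0.523%). Higher calls were thus a larger part of the calls on the X chromosome than over all genes. The median log2 fold change of the X-linked genes was 0.09 against 0.03 for all tested genes. A chromosome median does not bear on a single gene, and the part of sex in the Cybb difference cannot be told apart from that of the label.

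Cyba (Entrez 13057, chr8:122424771-122432940) was the most abundant of the members in both groups. It was measured at 844.6, 732.1 and 784.1 RPKM in the WT-labelled libraries and at 455.2, 600.2 and 515.6 RPKM in the others. The groups did not overlap, with means of 787.0 ± 56.3 and 523.7 ± 72.8 RPKM. Its log2 fold change was -0.59 (SE 0.13, 95% interval -0.89 to -0.30, limma adjusted p = 0.0454). This call was close to the threshold. It was lost when any 1 library other than Asic3-null replicate 2 was left out (adjusted p 0.0869 to 0.158 with limma), and the log2 fold change then lay between -0.64 and -0.50. Unlike Cybb, Cyba kept its place near the top of all tested genes, at the 99.4 percentile in the WT-labelled and the 99.1 percentile in the other libraries.

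Ncf1 encodes the organizer subunit, which on phosphorylation opens and binds CYBA (Entrez 17969, chr5:134220053-134229628). It was measured at 273.7, 222.9 and 233.8 RPKM in the WT-labelled libraries and at 117.8, 206.4 and 212.4 RPKM in the Asic3-null-labelled ones. The groups did not overlap, but Asic3-null replicate 1 lay far below the other 2 libraries of its group, which were close to the WT-labelled range. The log2 fold change was -0.49 (SE 0.22, 95% interval -0.98 to 0.01, limma adjusted p = 0.326). It was -0.21 without Asic3-null replicate 1. On the opposite strand Gtf2ird2 shares 408 exon bases with Ncf1, and the library kit does not mark strand, so reads in that stretch cannot be assigned to one gene. Gtf2ird2 was at 11.8 ± 5.12 and 6.63 ± 0.86 RPKM, far below Ncf1 in both groups.

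Promoter entries in the RefSeq table (GRCm38.p6) were found for 3 of the 7 members, and these 3 are shown. Each line holds the 250 bases before the start to which the table's entry belongs, read 5′ to 3′ on the gene's own strand, which is the minus strand for all 3. Capitals mark GGAA and its reverse complement TTCC, the core letters that ETS factors such as PU.1 bind. The windows are chrX:9469325-9469574 for Cybb, chr8:122432941-122433190 for Cyba and chr5:134229626-134229875 for Ncf1. For Cybb that start is an internal one. A coding GENCODE transcript starts near the far end of the gene's span, at base 9487771, whereas the window adjoins the first base (9469324) of the coding GENCODE transcript of 4752 spliced bases, the same length as the one behind the RPKM of Cybb.
Cybb: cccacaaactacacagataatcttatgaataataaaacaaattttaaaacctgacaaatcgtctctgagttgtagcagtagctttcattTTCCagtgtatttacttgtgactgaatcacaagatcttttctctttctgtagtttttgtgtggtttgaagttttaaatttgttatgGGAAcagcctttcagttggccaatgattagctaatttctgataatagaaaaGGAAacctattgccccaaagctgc
Cyba: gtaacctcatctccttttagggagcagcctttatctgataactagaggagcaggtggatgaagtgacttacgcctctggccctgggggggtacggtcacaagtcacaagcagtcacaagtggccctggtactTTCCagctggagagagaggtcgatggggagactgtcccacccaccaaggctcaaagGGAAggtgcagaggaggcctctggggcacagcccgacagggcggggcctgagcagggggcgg
Ncf1: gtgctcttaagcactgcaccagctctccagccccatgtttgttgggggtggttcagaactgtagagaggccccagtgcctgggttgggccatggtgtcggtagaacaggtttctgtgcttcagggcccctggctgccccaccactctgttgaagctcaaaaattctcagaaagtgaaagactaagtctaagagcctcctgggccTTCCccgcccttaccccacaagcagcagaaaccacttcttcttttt
On both strands together GGAA occurred 3 times before Cybb, 2 times before Cyba and 1 time before Ncf1, where 93.4% of all 32851 promoter windows of this length hold it and the mean is 2.91 matches. The longer AAGGAA, which contains GGAA, occurred only before Cybb, with its first base at -26 (the base next to the start is -1), and 22.6% of all windows hold it. CCAAT, the letters of the CCAAT box, also occurred only before Cybb among the 3, at -56, and 33.8% of all windows hold it. These letter counts describe the windows and were not tested against expression.

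Ncf4 encodes the subunit with a phosphoinositide-binding domain that holds the oxidase on the phagosome (Entrez 17972, chr15:78244164-78262582). It was measured at 221.1, 198.5 and 155.4 RPKM in the WT-labelled libraries and at 79.9, 102.2 and 93.4 RPKM in the Asic3-null-labelled ones. The groups did not overlap, and even the lowest WT-labelled library stood well above the highest of the others. Mean Ncf4 was 191.7 ± 33.4 and 91.8 ± 11.2 RPKM. The log2 fold change was -1.05 (SE 0.16, 95% interval -1.41 to -0.68, limma adjusted p = 0.00983), the largest among the cytosolic members.

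Neither Rac gene passed the test. Rac2 is the form largely restricted to blood cells and the main Rac of the neutrophil oxidase (Entrez 19354, chr15:78559169-78572783). It was measured at 400.4, 414.9 and 403.9 RPKM in the WT-labelled libraries and at 356.9, 349.0 and 344.4 RPKM in the others. Both groups were tight and did not overlap. Its log2 fold change was -0.21 (SE 0.10, 95% interval -0.44 to 0.01, limma adjusted p = 0.336).

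Rac1, the form made in most tissues (Entrez 19353, chr5:143505481-143528031), was measured at 129.1, 112.5 and 136.5 RPKM in the WT-labelled libraries and at 107.7, 113.8 and 108.7 RPKM in the Asic3-null-labelled ones. The groups overlapped, since WT replicate 2 lay below Asic3-null replicate 2. On the log2 scale the fold change was -0.19 (SE 0.12, 95% interval -0.46 to 0.08, limma adjusted p = 0.482). The longest stretch of identical bases shared by a Rac1 and a Rac2 transcript was 29 bases. Rac1 shares 2309 exon bases with Daglb on the opposite strand, and Daglb was at 13.7 ± 1.91 and 10.7 ± 3.09 RPKM.

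Hvcn1 (Entrez 74096, chr5:122206805-122242297) was measured at 29.3, 38.2 and 38.0 RPKM in the WT-labelled libraries and at 52.0, 45.5 and 40.4 RPKM in the Asic3-null-labelled ones. All 3 Asic3-null-labelled libraries were above all WT-labelled ones, narrowly so for Asic3-null replicate 3. The log2 fold change was 0.38 (SE 0.16, 95% interval 0.02 to 0.74, limma adjusted p = 0.294), so the gene did not pass the test. Tctn1, which overlaps Hvcn1 on the opposite strand over 1574 exon bases, was measured at 16.5, 15.3 and 16.9 RPKM in the WT-labelled libraries and at 28.0, 18.0 and 16.2 RPKM in the others. Its single high value fell in Asic3-null replicate 1, the library in which Hvcn1 was also highest, and reads of the shared bases cannot be divided between both genes.

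**Figure D2:**
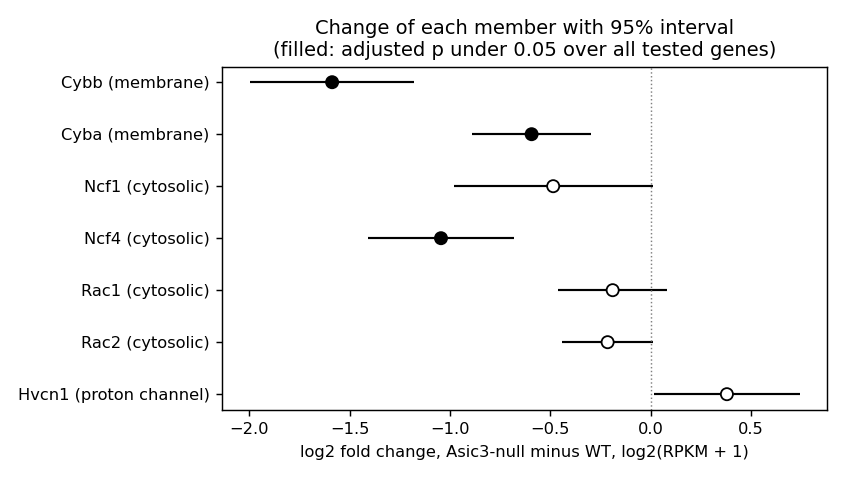
Log2 fold change of each oxidase gene, Asic3-null-labelled minus WT-labelled libraries on the log2(RPKM + 1) scale, with 95% intervals from limma (n = 3 each) and filled points for an adjusted p under 0.05. The intervals of Cybb, Ncf4 and Cyba lie below 0, those of Ncf1, Rac1 and Rac2 reach just past 0, and that of Hvcn1 lies above 0 before adjustment over all genes.

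Counted by ranges, 5 members lay lower and 1 higher with no overlap between the groups, where 11.4% and 11.2% of all tested genes did so. Rac1 was the exception. With 3 libraries against 3 the exact two-sided permutation test cannot go below p = 0.10, which each of those 6 genes reached. Rac1 had an exact permutation p of 0.20.

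Levels in RPKM are divided by a gene length, so a ranking of the members within a group rests on the lengths used. The length recovered from the RPKM equalled that of a GENCODE transcript for only 2 members, Cybb and Ncf1. For Hvcn1 it was 1413 bases, where all exons of the gene model together hold 3563. In the WT-labelled libraries the order of mean RPKM was Cyba, Rac2, Ncf1, Ncf4, Rac1, Cybb and Hvcn1. Only the neighbours Rac1 and Cybb overlapped in their ranges. In the Asic3-null-labelled libraries the order was Cyba, Rac2, Ncf1, Rac1, Ncf4, Hvcn1 and Cybb, with no overlap between neighbours. Thus Rac1 stood below Ncf4 in one group and above it in the other, and Cybb moved from above the proton channel gene to below it. The RPKM of the 7 members summed to 1904 ± 125 and 1337 ± 126. Cybb made up 5.95 ± 1.17% of that sum in the WT-labelled and 2.74 ± 0.12% in the Asic3-null-labelled libraries, and the share of Ncf4 went from 10.04 ± 1.41% to 6.86 ± 0.20%. The shares of Rac2 (21.4 ± 1.68% and 26.4 ± 2.93%), Rac1 (6.63 ± 0.66% and 8.27 ± 0.60%) and Hvcn1 (1.86 ± 0.37% and 3.48 ± 0.73%) were larger in the Asic3-null-labelled libraries without overlap, although the levels of Rac2 and Rac1 themselves were not higher there.

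The balance between the partners of the flavocytochrome lay apart in the groups. The ratio of Cyba to Cybb RPKM was 5.66, 7.39 and 8.29 in the WT-labelled libraries and 13.2, 15.7 and 14.0 in the Asic3-null-labelled ones. Each Asic3-null-labelled library had more Cyba for each unit of Cybb than any WT-labelled library. The mean ratio was 7.11 ± 1.34 and 14.3 ± 1.26 (exact two-sided permutation p = 0.10, the smallest possible with 3 against 3). On the log2(RPKM + 1) scale the change of Cybb exceeded that of Cyba by -0.99.

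The ratio of Ncf1 to Ncf4 was 1.24, 1.12 and 1.50 in the WT-labelled libraries and 1.47, 2.02 and 2.27 in the others. These ranges overlapped, through WT replicate 3 and Asic3-null replicate 1 (exact permutation p = 0.20). The ratio of Rac2 to Rac1 was 3.25 ± 0.39 and 3.18 ± 0.12, with overlapping ranges (exact permutation p = 0.90).

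**Figure D3:**
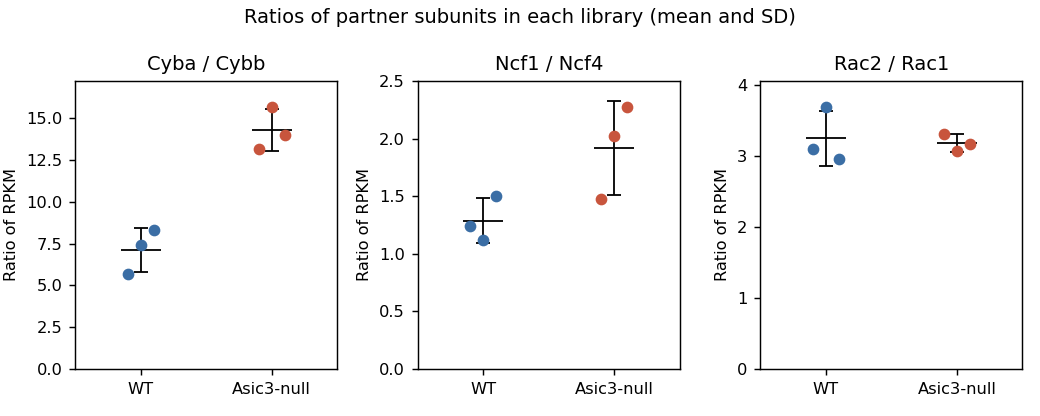
Ratios of RPKM within each library for the pairs Cyba to Cybb, Ncf1 to Ncf4 and Rac2 to Rac1, with points for libraries, a bar for the mean and whiskers for the SD (n = 3 each). The groups separate for Cyba to Cybb (5.66 to 8.29 against 13.2 to 15.7) and overlap for the other 2 pairs.

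The membrane and the cytosolic subunits were also compared as groups, by the mean of their log2(RPKM + 1) in each library. The membrane mean exceeded the cytosolic mean by 0.59, 0.34 and 0.37 in the WT-labelled libraries and lay at -0.13, -0.16 and -0.25 relative to it in the Asic3-null-labelled ones. The sign differed between the groups in every library. The membrane mean changed by -1.09 and the cytosolic mean by -0.48, a difference of -0.61. Within the cytosolic subunits the mean change was -0.77 for Ncf1 and Ncf4 and -0.20 for Rac1 and Rac2. The log2 fold change of the cytosolic Ncf4 (-1.05) was nevertheless larger in size than that of the membrane subunit Cyba (-0.59), a difference that was not tested.

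Other genes of the pathway were examined in 8 lists of 64 genes, of which 50 reached a mean of at least 1 RPKM in both groups. Of these 5 were called lower and none higher, where 2.82% of all tested genes were called lower and 0.523% higher. The median log2 fold change was -0.20, with 39 of 50 below 0 where 45.5% of all tested genes were. A further 3 (C5ar1, Fpr1 and Epx) passed the filter only through the WT-labelled libraries, had to be lower, and are left out of these counts. The calls came from only 2 lists, the receptors that trigger the burst and the transcription factors.

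Of 8 receptors and receptor chains that set off the burst 5 passed the filter in both groups, and 4 of those were called lower. The Mac-1 chain gene Itgam had a log2 fold change of -2.35 (limma adjusted p = 0.000720). C5ar1, the receptor for complement C5a, went from 5.72 ± 2.74 to 0.385 ± 0.248 RPKM (log2 fold change -2.21, limma adjusted p = 0.0107), with only 1 to 4 reads in each Asic3-null-labelled library. Its passing the filter rested on the WT-labelled group. The filter thus fixed its direction, so C5ar1 is not among the 4 and nothing is drawn from its test. Fpr2, a formyl peptide receptor, went from 16.1 ± 7.53 to 1.53 ± 1.30 RPKM (log2 fold change -2.79, limma adjusted p = 0.0123), and without WT replicate 1 its log2 fold change was -2.48 and its adjusted p 0.0563. On untransformed RPKM neither C5ar1 (a difference of -5.34 RPKM, adjusted p 0.0933) nor Fpr2 (-14.6 RPKM, adjusted p 0.0932) was called by limma. The remaining 2 of the called genes, named after their values were seen, were the shared integrin chain gene Itgb2 (156.1 ± 24.9 and 78.9 ± 15.0 RPKM, log2 fold change -0.98) and the beta-glucan receptor gene Clec7a (30.8 ± 9.34 and 12.7 ± 2.28 RPKM, log2 fold change -1.18).

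Of 10 transcription factors known to act on oxidase genes or in the myeloid lineage only Cebpb was called. It went from 84.2 ± 18.0 to 49.2 ± 2.80 RPKM (log2 fold change -0.74, limma adjusted p = 0.0461), and the call held when WT replicate 2 was left out but was lost without any other single library (adjusted p 0.105 to 0.165, log2 fold change -0.78 to -0.58). In all it was called in 5 of 15 alternatives. Spi1, which encodes PU.1 and was named after its values were seen, was at 409.7 ± 31.7 and 314.5 ± 21.5 RPKM (log2 fold change -0.38, limma adjusted p = 0.136). The factors did not all move down, as 7 of the 10 were below 0 and Cebpe, Elf1 and Runx1 were above it. Cebpe was higher without overlap between the groups, at 65.6 ± 8.66 and 86.6 ± 8.88 RPKM. It did not pass the test (log2 fold change 0.40, limma adjusted p = 0.222).

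No gene was called among 8 Rac activators, 6 Rac inhibitors, 11 kinases and lipid enzymes, 4 assembly helpers, 5 genes of oxidant handling and 1 gene of the other NADPH oxidases. Their median log2 fold changes lay between -0.27 and 0.17. The Rac activators, which load Rac with GTP, were below 0 in 8 of 8 cases, where 45.5% of all tested genes were. Their log2 fold changes ran from -0.69 to -0.04, with a median of -0.27, and whether the list shifted as a whole was not tested. The assembly helper Cybc1, a chaperone needed for CYBB protein and named after its values were seen, was at 46.4 ± 7.20 and 43.1 ± 6.27 RPKM (log2 fold change -0.11, limma adjusted p = 0.800). Mpo, whose product turns hydrogen peroxide into hypochlorous acid, varied so widely among the WT-labelled libraries (190.9, 789.5 and 548.0 RPKM) that its mean difference lay within the spread. Of 9 genes of the other NADPH oxidases 6 had no read in any library.

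**Figure D4:**
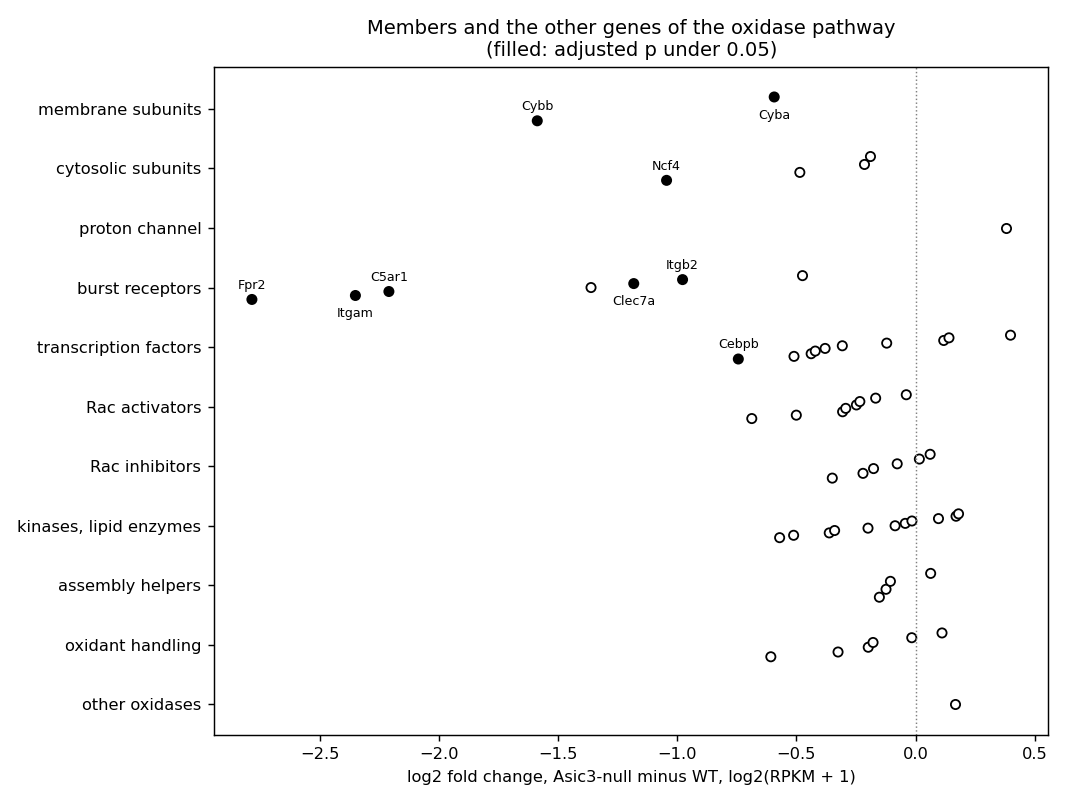
Log2 fold changes on the log2(RPKM + 1) scale for the oxidase genes and for the other tested genes of the pathway, 1 row per list, with filled points for an adjusted p under 0.05 (limma, n = 3 each). Filled points stand only in the rows of the membrane subunits, cytosolic subunits, burst receptors and transcription factors, and all of them lie below 0; the points of C5ar1, Fpr1 and Epx are genes that passed the filter only through the WT-labelled libraries.

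The genes whose levels followed each subunit most closely over the 6 libraries were sought among 6879 genes with a mean of at least 10 RPKM, as a description. For Cybb they were Cd177, a neutrophil surface glycoprotein gene that is also in the list of mature neutrophil markers (Pearson r = 0.998), and Pram1, a myeloid adaptor gene (r = 0.998). Cd177 stood at 134.1, 80.6 and 82.5 RPKM in the WT-labelled libraries and at 27.1, 26.9 and 27.0 RPKM in the others, so WT replicate 1 was highest for it as for Cybb. For Cyba they were Cotl1 (r = 0.998), whose product binds actin, and Selplg (r = 0.996), which encodes the P-selectin ligand. For Ncf4 they were Padi2 (r = 0.997), an arginine deiminase gene, and Chil4 (r = 0.996), a chitinase-like gene.

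For Ncf1 they were Hpgd (r = 0.989), a prostaglandin-degrading enzyme gene, and Pbxip1 (r = 0.987). Hpgd stood at 766.1, 565.3 and 504.0 RPKM in the WT-labelled libraries and at 144.0, 494.3 and 506.6 RPKM in the others. Its low value in Asic3-null replicate 1 is the same library in which Ncf1 was lowest. These correlations share depth, library and the difference between the groups, and the points are only 6 libraries.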

How the data were processed

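Total RNA of sorted LICs was made into libraries by an unstranded protocol (TruSeq v2). Per the submitters' processing notes, reads were handled with CASAVA 1.8.2 and TopHat2 2.0.12 on GRCm38. The counting tool and annotation are not given in the sources used here. The authors deposited RPKM values, 1 column per library, for 27179 Entrez genes. Symbols and positions were matched by Entrez number to RefSeq (25275 genes, 1904 without a symbol).

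RPKM values were whole multiples of 1 read per gene, which gave back reads, gene lengths and depth (all 16825 genes above 0, within a tolerance of 0.0001 reads). Genes with a mean of at least 1 RPKM (12037) were tested on log2(RPKM + 1) with limma 3.58.1 (R 4.3.3, intensity trend, Benjamini-Hochberg adjustment over all of them, called at 0.05). Such fold changes understate those of low genes. Alternatives were limma-voom on the recovered reads, median-ratio scaling, quantile normalization, a pseudocount of 0.1, a mean of at least 5 RPKM, no filter, no trend, untransformed RPKM, a replicate block and leaving out each library. Scripts were tested on simulated data. Single values were compared with exact permutation tests in SciPy 1.17.1. Between replicates of a group the mean chi-square per gene was 4.02 to 8.25, so no library was a copy of another. Replicate numbers do not pair libraries (correlations of same-numbered deviations 0.06, -0.06 and -0.12).

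Genes named are the members, Asic3, the sex-linked checks, up to 3 called genes per pathway list by lowest p, and the 2 nearest patterns to Cybb, Cyba, Ncf1 and Ncf4. Overlap partners are named by position. Any other gene, such as Kit, Cd34, Hoxa9, Meis1, Myb, Mpo, Ly6g, Cd79b, Ms4a1, Fpr1, Epx and Gp1bb, was named after its values were seen. Members and lists were chosen with earlier results of these data known. Marker lists of other cells gave summed RPKM, WT-labelled against Asic3-null-labelled, of 43.3 to 50.5 against 41.1 to 47.6 for B cells, 1.83 to 4.26 against 1.50 to 4.55 for T cells, 1.00 to 5.94 against 0.972 to 1.06 for erythroid cells, 21.8 to 80.6 against 17.8 to 26.2 for eosinophils, 0.901 to 1.19 against 0.419 to 0.604 for dendritic cells, 57.4 to 127.7 against 114.6 to 126.6 for mast cells and basophils, and 11.6 to 15.8 against 11.6 to 23.3 for megakaryocytes. Of these lists only Gp1bb of the megakaryocyte list was called (lower). 1 further pathway list and 1 further marker gene were left out of the tables and are not reported here.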

Additional observations from a re-analysis of the deposited data

How the results depend on the processing

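Across 15 alternatives that refitted all genes, Cybb and Ncf4 were called lower in 15 of 15 and Ncf1, Rac1, Rac2 and Hvcn1 in none, and no member changed sign. Leaving out 1 library at a time gave log2 fold changes of -1.71 to -1.38 for Cybb and -1.19 to -0.94 for Ncf4. Cyba was called in 6 of 15. Its adjusted p was 0.110 without the filter on low values (log2 fold change -0.59), 0.133 without the intensity trend (-0.59) and 0.267 on untransformed RPKM (a difference of -263 RPKM), and with 1 library left out its log2 fold change ran from -0.70 to -0.50. Asic3 kept its direction, with adjusted p 0.0623 without the filter (log2 fold change 1.81) and 0.0848 on untransformed RPKM (5.43 RPKM), and 1.54 to 2.07 on the log2 scale with 1 library left out. It did not pass when replicate 1 or 3 of either group was removed (adjusted p 0.0655, 0.0761, 0.0961 and 0.1003), and it was called in 7 of 14 alternatives. Cebpb was also lost with no filter (adjusted p 0.0750), no trend (0.102) and the block (0.105), all at a log2 fold change of -0.74, with a pseudocount of 0.1 (-0.75, adjusted p 0.0507) and on untransformed RPKM (-35.0 RPKM, adjusted p 0.0961). The cause of these losses was not tested. The number of genes changed was 403 in the main test, 546 with limma-voom, 439 with median-ratio scaling, 406 with quantile normalization, 370 with a pseudocount of 0.1, 327 without the trend, 320 at a mean of at least 5 RPKM, 288 without the filter, 206 on untransformed RPKM and 203 to 293 with 1 library left out.

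The replicate numbers did not pair the libraries, and not every library deviated most like the one with its own number. With the number as a block 246 genes were called, Cyba (-0.59, adjusted p 0.138) and Asic3 (1.81, adjusted p 0.0598) were not called, and Cybb and Ncf4 were. Recomputed only with a pseudocount of 0.1 and with 1 library left out, the membrane minus cytosolic change ran from -0.65 to -0.53 and the Rac2 minus Rac1 change from -0.09 to 0.07. At 1947168 to 2381861 reads per library, genes of a few reads such as C5ar1 were measured coarsely.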
